A study of Homo sapiens with 8 samples.

Results

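Cadherins, protocadherins and their giant relatives are membrane proteins that join cells to each other through extracellular cadherin repeats, which bind calcium. Here their transcripts were followed in a map of the RNA modification m6A in U2OS cells. The members were all m6A peaks whose gene name began with PCDH, was CDH followed by digits only, or was FAT1 to FAT4, DCHS1, DCHS2 or CELSR1 to CELSR3. They made up 36 of 15730 peaks of control cells and 38 of 13219 peaks of DF2 siRNA cells, in 11 of the 10577 genes with a peak in either list. The rule uses gene names and no measured value.

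U2OS is a human osteosarcoma cell line. Control cells and cells given siRNA against YTHDF2 (DF2), a cytoplasmic protein that binds m6A and directs the bound mRNA to decay, were compared. Both conditions shared the cell line, the extraction of cytoplasmic RNA, its fragmentation to about 100 nt and the antibody against m6A. Of 8 libraries, 4 were input RNA and 4 were immunoprecipitates, 2 per condition, and the labels do not say whether DF2 siRNA #1 and #2 are different siRNAs. The deposited values are 1 list of peaks per condition, tied to both immunoprecipitates of that condition, so no difference between conditions has a replicate check and no p-value is given. Library depth is unknown, and YTHDF2 mRNA itself was not measured in these files.

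Classical and related CDH proteins are held to actin through catenins. Most of the protein of a protocadherin, and a long part of the FAT and CELSR proteins, is encoded by a few unusually long exons that carry cadherin repeats. FAT and CELSR proteins are best known for planar cell polarity, the alignment of cells within a sheet. In most transcripts m6A is densest around the stop codon and in long internal exons, and a common core of its sequence context is GGAC.

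Sequence was at hand for the short parts of member peaks that lie in RefSeq promoter windows (GRCh38.p14), and 1 of these parts held GGAC on the strand of the transcript. It belongs to the first exonic block of CDH10, read from the window of the neighbouring RefSeq gene LOC124901174, in a peak found in control cells only, on chromosome 5, minus strand, from 24644650 to 24644679. The site is shown because no other readable part held GGAC on the strand of the transcript. Capitals mark GGAC.

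CDH10 5′ block: acaaacaaaaaggGGACatagtgacaattt

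The 165 bases of this block that could be read held GGAC once and GGACT not at all. GGAC was found in 45.1% of 35116 RefSeq promoter windows shortened to 165 bases when 1 strand was read, and in 69.2% when both were read. In FAT1, parts of 49 and 76 bases from the first exonic blocks could be read, and in PCDH1 a part of 12 bases. None of these 3 held GGAC, which 16.2%, 24.3% and 3.6% of windows of these lengths hold. A match is a description of the letters and does not mark a modified base.

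Members by family. Of 98 RefSeq protein-coding genes that fit the rule, 11 had a peak (11.2%), against 39.6% of all RefSeq protein-coding genes. The FAT, DCHS and CELSR genes were the fullest group, with 5 of 9. Of 23 CDH genes 4 had a peak, and of 13 protocadherins outside the gene clusters 2 did. No peak carried the name of any of the 53 clustered protocadherins of the PCDHA, PCDHB and PCDHG groups in the lists analysed here. The same held for CDH1 (E-cadherin), CDH2 (N-cadherin) and CDH11 (the osteoblast cadherin). A peak needs both the RNA and the mark, so a gene without one is not shown to be unexpressed.

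Of the 11 genes 10 were in both lists: CELSR1, CELSR2, CELSR3, FAT1, FAT4, PCDH1, PCDH7, CDH5, CDH10 and CDH15. The eleventh, CDH24, was in the DF2 siRNA list only. Over all genes with a peak, 75.2% were in both lists, 19.1% in the control list only and 5.73% in the DF2 siRNA list only. No member was in the control list only.

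Members often carried several peaks. Of 10 genes in the control list 7 had 3 peaks or more, against 12.6% of all control genes, and of 11 in the DF2 siRNA list 6 did, against 11.9%. FAT1 and FAT4 had 8 control peaks each, and 10 of 9971 control genes had 8 or more. In the DF2 siRNA list FAT1 had 9 peaks, a number reached by 3 of 8556 genes, and FAT4 had 7.

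Position in the transcript. Peaks inside coding sequence alone were frequent in the CELSR and FAT genes. Coding sequence was the only label of 15 of 36 control peaks (41.7%, 95% exact binomial interval 25.5 to 59.2%), against 7.59% of all control peaks. In the DF2 siRNA list it was the only label of 20 of 38 (52.6%, 35.8 to 69.0%), against 9.49% of all. All 15 such control peaks belonged to CELSR1, CELSR2, CELSR3, FAT1 and FAT4, as did 17 of the 20 in DF2 siRNA cells, where PCDH7, CDH15 and CDH24 had 1 each. The intervals cover counting error only, and peaks of 1 gene share a transcript, so they are not independent. Leaving out FAT1 and FAT4 gave 25% for control peaks and 40.9% for DF2 siRNA peaks.

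The share of stop codon labels did not stand apart. Labels in the 3′ UTR were less frequent than on all peaks in the pooled members, but not in the CDH genes. A stop codon label was on 14 control peaks (38.9%, 23.1 to 56.5%) and 13 DF2 siRNA peaks (34.2%, 19.6 to 51.4%) of these genes. The shares of all peaks, 42.7% and 43.7%, lie inside these intervals. Several of these labels lay far from the 3′ end of the RefSeq gene. Examples are the 5′ peak of FAT1 (118813 bp away, both lists), PCDH1 at 141868568 (15478 bp, both lists) and PCDH7 at 30722415 (422186 bp, control). The share thus does not describe the stop codon at the 3′ end alone. Any 3′ UTR label was on 33.3% (18.6 to 51.0%) of control and 28.9% (15.4 to 45.9%) of DF2 siRNA member peaks. All peaks stood at 55.2% and 55.0%, above both intervals. These intervals cover counting error only, and peaks of the same gene share a transcript, so the peaks are not independent. The families differed. In the FAT and CELSR genes 5 of 25 control and 5 of 26 DF2 siRNA peaks had the label, but in the CDH genes 5 of 6 and 4 of 6 did. Among peaks of PCDH1 and PCDH7 the counts were 2 of 5 and 2 of 6. No member peak was labelled non-coding RNA, a label on 15.5% of all control peaks and 11.8% of all DF2 siRNA peaks.

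**Figure D1:**
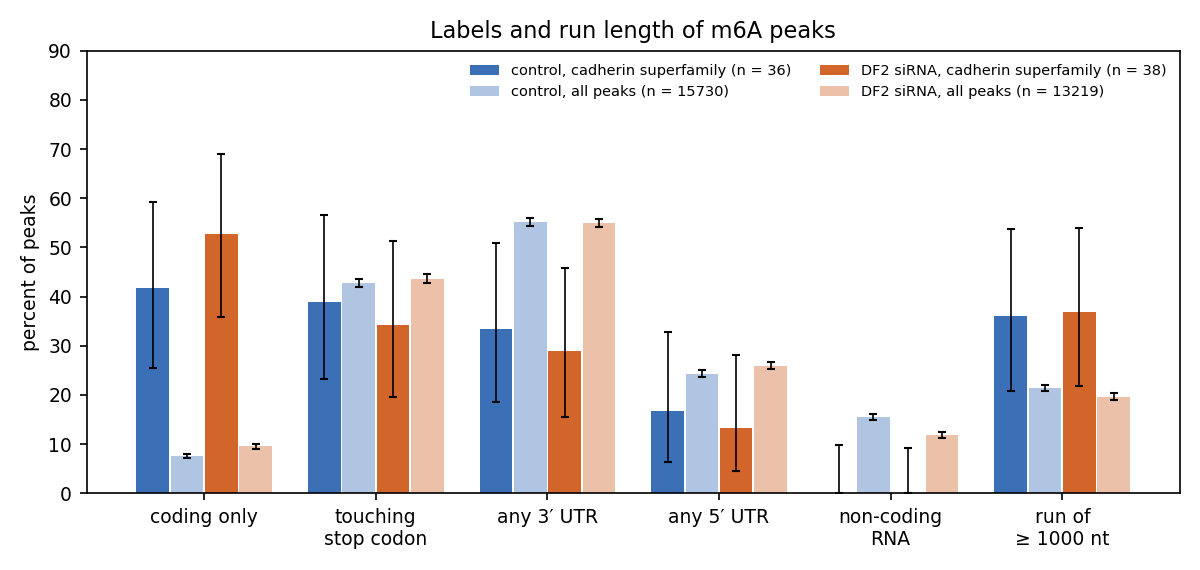
Share of peaks (percent, y axis) with each label, and with an uninterrupted exonic run of at least 1000 nt, for cadherin superfamily genes (dark bars) and all peaks (light bars) of each list. Bars show the share and lines the 95% exact binomial interval, and the dark coding-only bars stand at 41.7% and 52.6% against 7.59% and 9.49% for all peaks.

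The median exonic length of member peaks was 900 nt in control and 800 nt in DF2 siRNA, against 600 nt for all peaks of either list. An uninterrupted run of at least 1000 nt, with no intron inside, was part of 13 control peaks (36.1%, 20.8 to 53.8%) and 14 DF2 siRNA peaks (36.8%, 21.8 to 54.0%), against 21.4% and 19.6% of all peaks. The member shares of the lists were close to each other. The share of all peaks lay just inside the control interval and just under the DF2 siRNA interval, which is no contrast between conditions. These intervals cover counting error only, and peaks of the same gene share a transcript, so the peaks are not independent. Length and label were looked at together. Among control peaks with such a run, 7 of 13 member peaks were coding only, against 8.45% of all, and among those with shorter runs 8 of 23 were, against 7.36%. In the DF2 siRNA list these counts were 9 of 14 against 9.57%, and 11 of 24 against 9.48%.

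Fold enrichment, as deposited by the authors, is a ratio per peak whose reference the file headers do not state. It serves below to describe peaks and to rank them within a list, as does the deposited score, a whole number without a stated meaning. Values of the 2 lists are printed side by side but need not share a scale. Over all 4643 pairs of peaks with identical intervals, the median ratio of DF2 siRNA to control score was 0.425. A lower DF2 siRNA score is thus not by itself a change in that gene. The same ratio was not computed for fold enrichment, so a difference there is not read as a change either. A percentile is the rank of a peak as a percent of the number of peaks in its list, with tied peaks given their mean rank. The median fold enrichment of member peaks was 47.4 in control, where the median of all peaks was 20.8, and 23.2 in DF2 siRNA, where it was 17.7. By family, the control and DF2 siRNA medians were 51.6 and 27.5 for FAT and CELSR genes and 48.6 and 43.6 for PCDH1 and PCDH7. Those of the CDH genes, 18.8 and 10.1, lay under the list medians. Above the median of their list lay 25 of 36 control and 24 of 38 DF2 siRNA member peaks.

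**Figure D2:**
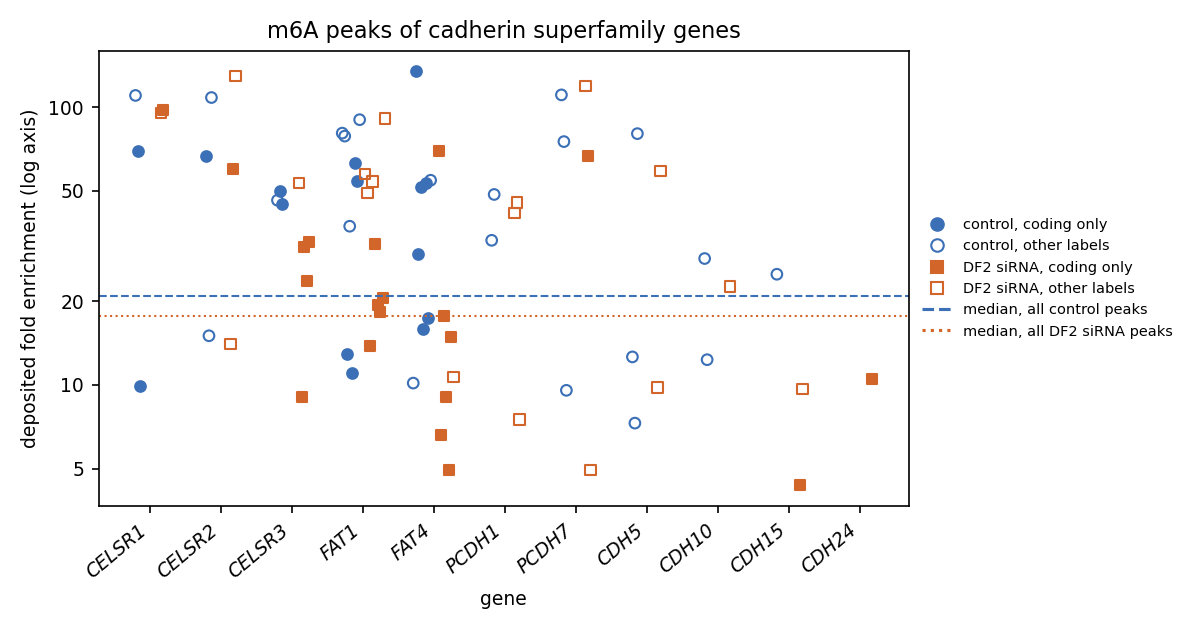
Deposited fold enrichment (log axis) of every m6A peak of the 11 genes in the control list (circles) and the DF2 siRNA list (squares), with filled symbols for peaks labelled coding sequence only. Lines mark the median of each whole list (20.8 for control, 17.7 for DF2 siRNA). Peaks of FAT4, CELSR1, CELSR2 and PCDH7 pass 100 in control while no CDH15 or CDH24 peak passes 25.1.

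CELSR genes. These encode seven-pass membrane cadherins that act in planar cell polarity together with Frizzled and VANGL proteins. All 3 had the same plan in both conditions, with a long coding stretch near the 5′ end of the gene and a second site at the stop codon or 3′ UTR.

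CELSR1 (chromosome 22, minus strand) carried its coding peak from 46530445 to 46536770 in control, with 3200 nt of exonic sequence, at 69.5 by fold enrichment and 1647 by score. A further control peak of 200 nt followed after a gap of 200 nt, with a fold enrichment of 9.89. In DF2 siRNA cells 1 peak of 3600 nt covered both and the gap, at 97.6 by fold enrichment and 600 by score. Its uninterrupted run of 3544 nt was the second longest of 1255 coding-only peaks of that list. The stop codon peak reached 110.5 over 800 nt in control and 95.5 over 600 nt in DF2 siRNA. Both sites of CELSR1 thus stood in the upper part of both lists, at percentiles 88.4 and 96.7 in control and 97.0 and 96.7 in DF2 siRNA.

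CELSR2 (chromosome 1, plus strand) had a coding peak that began at 109250419 in both lists, with 3200 nt and a fold enrichment of 66.6 in control, and 3400 nt and 60.1 in DF2 siRNA. A peak of 200 nt at 109250019, labelled coding and 5′ UTR with a fold enrichment of 14.1, was in the DF2 siRNA list only. At the 3′ end the lists differed in how the site was divided. Control had a stop codon peak of 200 nt (fold enrichment 15.0) and, 400 nt further, a 3′ UTR peak of 800 nt (109, score 4088). DF2 siRNA had 1 peak of 1600 nt from 109273402 to 109275001 across both, at 129.6 by fold enrichment and 2171 by score. These were the 3′ peaks with the highest score percentiles of the CELSR genes, 99.0 in control and 99.3 in DF2 siRNA.

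CELSR3 (chromosome 3, minus strand) had lower values. In control, coding peaks of 2400 nt (fold enrichment 50.2) and 800 nt (44.9) lay 400 nt apart in its long 5′ stretch. DF2 siRNA had 3 peaks there, of 1400, 1000 and 1000 nt, with fold enrichments of 31.3, 23.7 and 32.7 and gaps of 200 nt. The stop codon peak was the same interval in both lists, 48638164 to 48640404, at 46.3 and 53.4. A weak coding peak from 48645521 to 48646233 (9.04) was found in DF2 siRNA only. CELSR3 thus went from 3 control peaks with 4000 nt of exonic sequence to 5 DF2 siRNA peaks with 4600 nt.

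**Figure D3:**
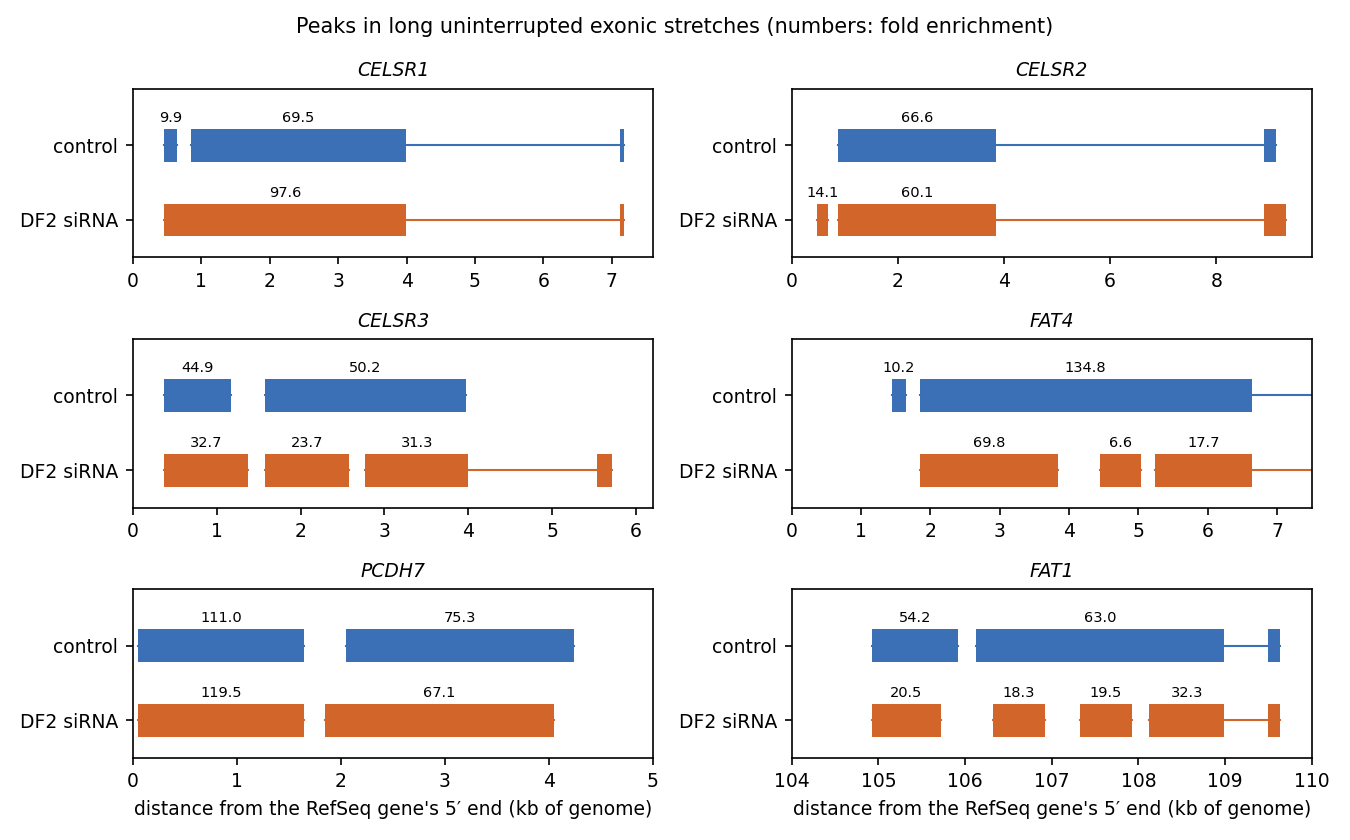
Member peaks along long exonic stretches of CELSR1, CELSR2, CELSR3, FAT4, PCDH7 and FAT1, against the distance from the RefSeq gene's 5′ end in kb of genome (x axis), for the control list (upper row) and the DF2 siRNA list (lower row). Blocks are exonic sequence of a peak, lines join blocks of 1 peak across introns, numbers are deposited fold enrichments, and the control block of FAT4 with 134.8 is split into 3 in DF2 siRNA with 69.8, 6.6 and 17.7.

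FAT genes. FAT1 and FAT4 encode giant cadherins, and FAT4 is a receptor for Dachsous proteins. FAT1 (chromosome 4, minus strand) held 11800 nt of exonic sequence in control peaks, the fifth largest amount of all control genes, and 9800 nt in DF2 siRNA peaks, the fourth largest of that list. All 9800 nt were also in control peaks.

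The strongest FAT1 peak by score was the same interval in both lists, 186706607 to 186726722, which joined the first 2 short exonic blocks to a run of 3239 nt. It was labelled coding, 5′ UTR and stop codon. Its fold enrichment was 90.3 in control and 91.1 in DF2 siRNA, and its scores were 4792 and 1706. Stop codon and 3′ UTR sequence was covered from 186588360 to 186590607 in both lists, at 80.8 and 57.5. A further site from 186595741 to 186597253 was also identical, at 78.8 and 49.1. A site that began at 186601626, labelled coding and stop codon, was listed at 37.3 over 1000 nt in control and 54.1 over 800 nt in DF2 siRNA. The other control peaks of FAT1 outside its internal coding stretch, at 186599918 and 186609912, had low fold enrichment (12.9 and 11.0) with scores of 409 and 482, above the list median of 143, and the second of these had no DF2 siRNA counterpart.

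The internal coding stretch of FAT1, from 186617068 to 186621773, was the one place in the gene where a peak of one list met several of the other. Control had peaks of 3000 and 1000 nt there, 200 nt apart, with fold enrichments of 63.0 and 54.2. DF2 siRNA had 4 peaks of 1000, 600, 600 and 800 nt, with fold enrichments of 32.3, 19.5, 18.3 and 20.5 and gaps of 200, 400 and 600 nt. The outer ends of the stretch were the same in both lists. The higher number of FAT1 peaks in DF2 siRNA, 9 against 8, therefore went with less sequence in peaks, not more.

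FAT4 (chromosome 4, plus strand) had the highest fold enrichment of all member peaks in control, 134.8, over 5000 nt from 125316799 to 125406890. Within this peak 4788 nt were uninterrupted, the fifth longest run of 1194 coding-only control peaks. DF2 siRNA had 3 peaks in its place, of 2000, 600 and 1400 nt, with fold enrichments of 69.8, 6.58 and 17.7. Together they shared 4000 nt with the control peak.

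The rest of FAT4 was also covered less in DF2 siRNA. Downstream coding sites of control were listed at 29.7, 51.6 and 53.3, and the overlapping DF2 siRNA peaks at 9.04, 4.93 and 14.9. The stop codon site stood at 54.7 over 1000 nt in control and at 10.7 over 600 nt in DF2 siRNA. A set of 3 control peaks had no counterpart, at 125316399 (fold enrichment 10.2), 125449547 (15.8, over 1800 nt) and 125490294 (17.4). Of the 11400 nt of FAT4 in control peaks 59.6% were also in DF2 siRNA peaks, the lowest share but one among the 10 genes in both lists, ahead of CDH10 with 50%.

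FAT4 combined high fold enrichment with low scores. Its best control peak stood at percentile 98.7 by fold enrichment and no FAT4 peak stood above 66.3 by score, with scores from 30 to 314. In FAT1 the best percentiles were 93.7 and 99.3, with scores from 409 to 4792. CDH5 (91.5 and 57.8) and CELSR3 (79.5 and 62.6) had the order of FAT4, and CELSR1 (96.7 and 97.7), CELSR2 (96.5 and 99.0) and PCDH7 (96.7 and 97.6) stood high by both. The file headers do not say what the score counts.

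Protocadherins. PCDH7 and PCDH1 are protocadherins outside the gene clusters. PCDH7 (chromosome 4, plus strand) had its peaks in the first 5′ stretch of the gene, which began 46 bp from the RefSeq start. The first, from 30720415 to 30722014 and labelled coding and 5′ UTR, was the same interval in both lists, at 111 by fold enrichment and 2738 by score in control, and 119.5 and 831 in DF2 siRNA. The second was 2200 nt long in both and lay 200 nt further upstream in DF2 siRNA, at 75.3 and 67.1. It was labelled coding and stop codon in control and coding only in DF2 siRNA, so that the label moved with a shift of 1 bin. A weak stop codon peak lay far downstream, after a gap of 418342 bp in DF2 siRNA (600 nt, fold enrichment 4.93, score 5). The control peak there ended at the same base and also took in an exonic block further upstream (1000 nt, 9.57, score 16).

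PCDH1 (chromosome 5, minus strand) had the same 600 nt peak in both lists from 141868568 to 141869167, at 48.6 in control and 45.5 in DF2 siRNA. It was labelled coding and stop codon. A stop codon and 3′ UTR peak of 2400 nt in control (33.2) was 2600 nt in DF2 siRNA (41.7). A weak peak of 400 nt over 4 exonic blocks, labelled coding and 5′ UTR (7.49, score 10), was in the DF2 siRNA list only. All 3000 nt of PCDH1 in control peaks were also in DF2 siRNA peaks.

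CDH genes. CDH5 is VE-cadherin, the cadherin of endothelial junctions, CDH15 is M-cadherin of muscle precursors, and CDH10 and CDH24 are type II cadherins. These genes had 6 peaks in each list, with median exonic lengths of 600 nt in control and 400 nt in DF2 siRNA.

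CDH5 (chromosome 16, plus strand) had the peak with the highest fold enrichment of the group. It covered 1972 nt from 66402815 around the stop codon and 3′ UTR in control, at 80.5 by fold enrichment and 210 by score. In DF2 siRNA it covered 1800 nt from the same start, at 58.9 and 157. A weaker site at 66392137 was 800 nt long in control (12.6) and 200 nt in DF2 siRNA (9.81), and a control peak of 200 nt at 66395806 (7.29) had no counterpart.

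Of the other endothelial markers listed for this check, KDR, TEK and VWF had no peak, and PECAM1 had 5 control peaks and no DF2 siRNA peak. Among osteoblast and mesenchymal markers RUNX2 and COL1A1 had a peak in both lists, and COL1A2, ALPL, SPARC, CDH2 and CDH11 had none. Of 6 epithelial markers only KRT8 had one, and of 5 neural markers TUBB3 had one in both lists and SYP in control only. In RNA of a whole culture, few cells with a transcript and little of it in every cell cannot be told apart, and the part of other cell types in the CDH5 values was not tested.

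CDH10 had a peak of 600 nt near its 3′ end, the same interval from 24487560 to 24491581 in both lists, at 28.6 in control and 22.7 in DF2 siRNA. By score this peak stood above that of CDH5, at 752 in control and 188 in DF2 siRNA. The second control peak holds the GGAC site printed above. It covered 600 nt of the first exons, with a fold enrichment of 12.3 and a −log10 p-value of 1.89. CDH15 had the same stop codon peak of 400 nt in both lists (89194865 to 89195264), at 25.1 in control and 9.67 in DF2 siRNA, and a coding peak in DF2 siRNA only (4.35, score 4). The single peak of CDH24 covered 400 nt of coding sequence from 23049043 to 23049876 on chromosome 14. It stood at 10.5 by fold enrichment and 24 by score. Its −log10 FDR value was 2.11, a different measure from the −log10 p-value of the CDH10 peak. The values of both DF2 siRNA-only peaks lay under the median of their list.

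Control against DF2 siRNA. The question was where m6A lay with and without the siRNA, and most member peaks were in both lists. Of 36 control peaks 30 shared at least 1 base with a DF2 siRNA peak on the same strand (83.3%, 67.2 to 93.6%), against 71.9% of all control peaks. Of 38 DF2 siRNA peaks 33 were overlapped by a control peak (86.8%, 71.9 to 95.6%), against 87.5% of all. Both intervals of the members contained the share of all peaks.

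Member peaks in 1 list only had low fold enrichment. The 6 control peaks without counterpart were those of CDH10, CDH5, FAT1 and, with 3, FAT4, and their fold enrichments ran from 7.29 to 17.4, all under the control median of 20.8. The 5 DF2 siRNA peaks without counterpart were those of CDH15, CDH24, CELSR2, CELSR3 and PCDH1, with fold enrichments from 4.35 to 14.1, all under the DF2 siRNA median of 17.7. By score, those of FAT1 (482, percentile 75.3), CDH10 (323, percentile 66.9) and CELSR2 (120, percentile 61.3) lay above the median of their list. Over all peaks, 4426 control and 1656 DF2 siRNA peaks had no counterpart. How many of these lay under the median was not counted. The low fold enrichments are thus not shown to be particular to these genes.

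Counting bases in place of peaks, the members held 47972 nt in control and 42600 nt in DF2 siRNA peaks, with 38800 nt in both. This was 80.9% of the control sequence, against 69.8% for all peaks, and 91.1% of the DF2 siRNA sequence, against 87.9%. The genes went both ways. FAT1, FAT4, CDH5, CDH10 and PCDH7 had more sequence in control peaks, CELSR2, CELSR3, PCDH1, CDH15 and CDH24 had more in DF2 siRNA peaks, and CELSR1 had 4200 nt in each. Of the bases in control peaks only, FAT4 held 4600 nt and FAT1 2000 nt, and of those in DF2 siRNA peaks only, CELSR2 held 1000 nt and CELSR3 800 nt.

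**Figure D4:**
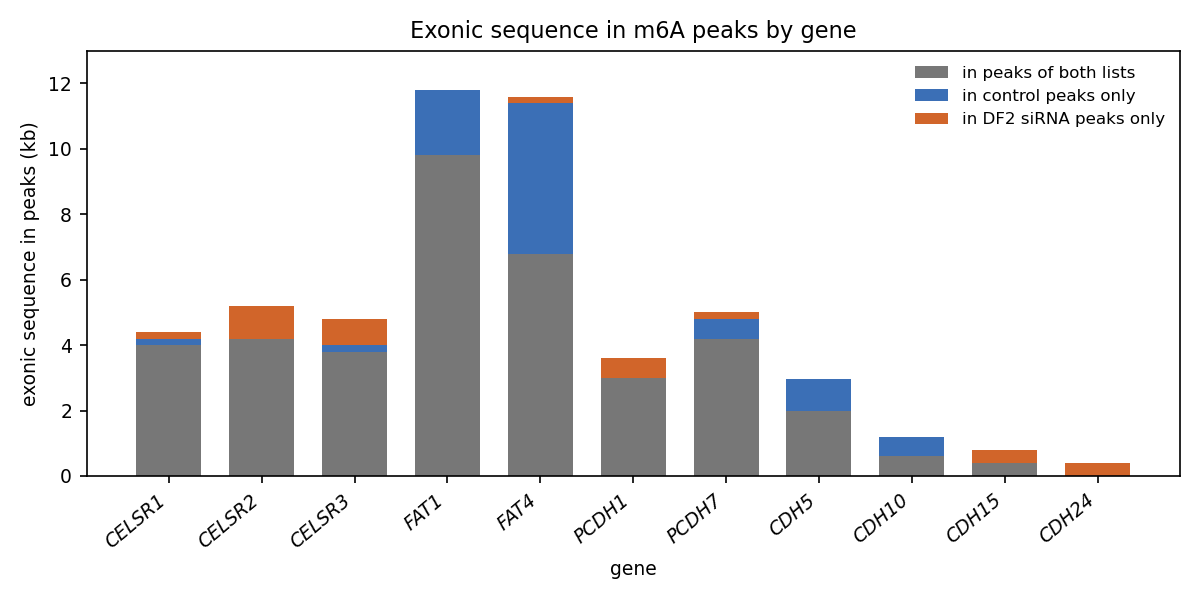
Exonic sequence in m6A peaks (kb, y axis) of the 11 genes, divided into bases in peaks of both lists (grey), in control peaks only (blue) and in DF2 siRNA peaks only (orange). FAT4 has the largest control-only part, 4600 nt, and CELSR2 the largest DF2 siRNA-only part, 1000 nt.

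Peaks that met several peaks of the other list were about as frequent as in the whole lists. A total of 3 control peaks, 1 each of FAT1, FAT4 and CELSR3, overlapped 2 or more DF2 siRNA peaks (8.33%, against 7.51% of all control peaks). In the other direction the 5′ peak of CELSR1 and the 3′ peak of CELSR2 did so (5.26%, against 7.30%). In these 5 places the number of peaks differed between the lists while 1000 nt or more of sequence was shared.

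Partners of the cadherins. Related genes were counted in the same way, in 4 lists. For comparison, 6343 of 20056 RefSeq protein-coding genes were in both lists, and 39.6% were in at least 1. Of 18 cytoplasmic partners 10 were in both lists and the other 8 in neither. CTNNB1 was one of them (β-catenin, with a best control peak of 32.8 and a best DF2 siRNA peak of 26.7), as were CTNND1 (p120 catenin, 31.6 and 35.0), VCL (vinculin, 37.7 and 22.1) and CBLL1 (a ubiquitin ligase for E-cadherin, 60.6 and 42.8). ARVCF, PKP2, PKP3, PKP4, AFDN and TJP1 made up the rest, and the α-catenin genes CTNNA1, CTNNA2 and CTNNA3 had no peak. Of their 20 peaks in each list 4 were coding only, against 7.59% of all control and 9.49% of all DF2 siRNA peaks.

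Of 13 genes of Fat, Dachsous and planar cell polarity signalling, 8 were in both lists and 5 in neither. FJX1, the human relative of the Golgi kinase that modifies Fat and Dachsous, stood at 112 (control) and 142 (DF2 siRNA), and VANGL1, a core polarity protein, at 108 and 57.0. The other 6 were PRICKLE3, FZD3, FZD6, PARD3, ATN1 and RERE.

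Of 22 proteases of cadherins and regulators of protocadherin choice or of E-cadherin, 14 had a peak in both lists and 2 in control only (STAG1 and SMCHD1). ADAM10, the sheddase of several cadherins, had 3 control peaks with a best fold enrichment of 81.1, and 1 DF2 siRNA peak at 5.95. CTCF was listed at 40.4 and 38.2, and the cohesin release factor WAPL at 112 and 58.7. Of the repressors of E-cadherin in the list, SNAI1, SNAI2, ZEB1 and ZEB2 had peaks in both lists and TWIST1 in neither.

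Of 16 other cadherin superfamily genes, 3 had a peak in both lists (DSG2, CLSTN1 and CLSTN3, all at 15.9 or less) and the desmosomal cadherin gene DSC2 had 2 peaks in control only (best fold enrichment 27.4).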

How the data were processed

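Per the labels' protocols, cytoplasmic RNA of U2OS cells was fragmented and taken through immunoprecipitation with an m6A antibody. Per the submitters' processing notes, HISAT2 and hg38 were used. No source used here names the peak caller, its settings or the annotation. Per the file headers, each peak has a fold enrichment (a ratio). Per the file headers, the −log10 column holds p-values for control peaks but FDR values for DF2 siRNA peaks. The deposited score has no stated meaning. Each list belongs to both immunoprecipitates of its condition. Exonic length was a multiple of 200 nt in 97.2% of control and 100% of DF2 siRNA member peaks, against 87.2% and 90.9% of all peaks.

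Block sizes are written in transcript order. Among minus-strand peaks of several blocks, the printed order could not be fitted to the peak's ends in 4189 of 7046 control and 3074 of 5928 DF2 siRNA peaks, so sizes were reversed on that strand, after which every peak fitted. Abutting blocks were joined into uninterrupted runs. Overlap means at least 1 exonic base shared on the same strand. Coordinates count from 1. Shares have 95% exact binomial (Clopper-Pearson) intervals. Gene ends and sequences are from RefSeq (GRCh38.p14), and 6 of the 11 genes had a promoter entry. Genes of the fixed lists were matched by symbol or unique older name within 100000 bp. Some genes of these lists are not reported here.

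The overlap count was tested on simulated data. No test between conditions was made. The members and lists were chosen with earlier results of these data known. The limit of 1000 nt was chosen after the values were seen. Every member with a peak is named, and all peaks are given for members in 1 list only, the 12 highest by fold enrichment, those differing by 2 peaks or more, and the 2 highest per family. In practice nearly all peaks are given. GGAC and GGACT over all peaks were planned and not analysed here, since no genome was used. Python 3.11.15, pandas 2.3.3, numpy 2.4.6, scipy 1.17.1 and matplotlib 3.10.9 were used.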

Additional observations from a re-analysis of the deposited data

How the results depend on the processing

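No paired analysis was possible because each condition has 1 list for both immunoprecipitates, and for the same reason no library could be left out. Stricter limits, equal list lengths, a scaled score floor (10 in DF2 siRNA, 23.5 in control) and, for overlap, strand, merging, whole spans and 50% reciprocal overlap were tried. The 10 genes in both lists numbered 8 to 10 throughout. One gene was in control only in the upper 50% by fold enrichment (CDH15) and with 2 peaks or more per gene (CDH10). The number in DF2 siRNA only was 0 with p or FDR 100 times smaller and 0 in the upper 50%. The share of DF2 siRNA member peaks overlapped was 100% (28 of 28 and 24 of 24) under these 2 limits and 65.8% with 50% reciprocal overlap, where the share of all peaks was 76.7%. The coding-only share of control peaks was 20% (1 of 5) in peaks of at most 400 nt and 25% without FAT1 and FAT4, an alternative added after the data were seen; all peaks gave 6.42% and 7.59%. Unknown depth limits every difference in the number or length of peaks between the lists. So does the −log10 column, which holds p-values in control and FDR values in DF2 siRNA. Its lowest value was 1.30 in both lists, so the 2 lists may not be cut alike. The part of this in peaks of 1 list only, split peaks and shorter peaks was not tested.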
